A study of Mus musculus with 10 samples.

Results

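The transcripts of 10 apical polarity and adherens junction genes were followed in embryonic mouse cortex at E10.5. The set is defined by gene symbol: Pard3, Pard6b and Prkci of the Par complex, Crb2 and Mpp5 of the Crumbs complex, Cdh2, Ctnnb1 and Ctnna1 of the adherens junction, the basolateral polarity gene Llgl1 and the endocytic adaptor gene Numb. All 10 were measured, each by 1 probe set, among 20405 named genes in the table. The mutant group held 5 embryos with the Mos2 allele of Magoh in the heterozygous state on the C57BL/6 background, and the control group 5 wild-type C57BL/6 embryos of the same age. The product of Magoh belongs to the core of the exon junction complex, which is deposited on mRNA by splicing. As heterozygotes the mutants carry 1 mutated copy. The cortices of an embryo were dissected as a pair, and its total RNA was hybridised to Affymetrix Mouse Gene 1.0 ST arrays. Values are log2 levels after RMA, which removes background, makes the arrays comparable and condenses all probes of a set into 1 value. Differences are Magoh mutant minus wild type on the log2 scale.

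At this age the cortical wall is a pseudostratified epithelium of dividing progenitors. Each progenitor reaches the ventricle with an apical endfoot, and a belt of adherens junctions joins the endfeet to one another. N-cadherin spans the gap between cells, and its tail is tied to the actin cytoskeleton through beta-catenin and alpha-catenin. The Par and Crumbs complexes mark the apical side of the belt and restrict the basolateral proteins, and loss of these proteins is known to disturb the ventricular surface and the balance between division and differentiation.

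Magoh itself served as a check of the labels. It averaged 10.21 ± 0.18 in Magoh mutant cortex and 11.05 ± 0.09 in wild-type cortex (SD, n = 5 each), a log2 difference of -0.84 (limma, adjusted p = 8.5e-05). All 5 mutant arrays lay below every wild-type array. The medians over all genes ran from 7.15 to 7.23 on the 10 arrays. As a guide to background, 8.57 is used here, the level under which 95% of negative-control probe sets lay on an average array. Most of the apical progenitor markers lay above it in both genotypes, with Sox2 at 10.19 in mutants and 10.29 in wild type and Lhx2 at 9.94 in mutants and 10.16 in wild type. The exceptions were Prom1, below it in both, and Fabp7 and Emx2, below it in mutants at 7.70 and 8.47. Globin genes, which mark red cells, were also bright, with Hba-a1 at 13.20 in mutants and 13.05 in wild type. Magoh mutant array 1 stood farther from the other arrays of its genotype than any other array did: its median distance from them was 0.138 on the log2 scale, against 0.0906 to 0.129 for the other mutant arrays and 0.0642 to 0.0852 for wild-type arrays. Results that rest on it are given with and without it.

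None of the 10 genes was called in mutant cortex. In limma with Benjamini-Hochberg adjustment over all 20405 genes, 0 of 10 had an adjusted p under 0.05, where 0.573% of all genes did. At an unadjusted p under 0.05 there was 1 of 10 (Ctnnb1, lower), where 9.25% of all genes passed. In 0 of 10 genes were the genotypes without overlap, which was so for 2.82% of all genes. The differences split evenly, 5 above and 5 below 0. The median of their sizes without sign was 0.036, beside 0.062 over all genes. The largest with all arrays was 0.14 (Crb2), and 15.1% of all genes had a larger one. The called genes of the table had sizes of 0.28 and above. In whole cortex, fewer cells of a type and less RNA per cell cannot be told apart.

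The precision of the arrays bounds what could have been missed. For 9 of the 10 genes, all but Mpp5, the 95% intervals of the difference lay between -0.25 and 0.30, which is 0.842 to 1.23 of the wild-type level. The interval of Mpp5 was wider, at 0.723 to 1.19 of the wild-type level. RMA tends to compress fold changes, so these bounds hold for the array values. A failure to pass the threshold does not show that a gene was equal in both genotypes. Nor does a level of mRNA measure where a protein sits in the cell.

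**Figure D1:**
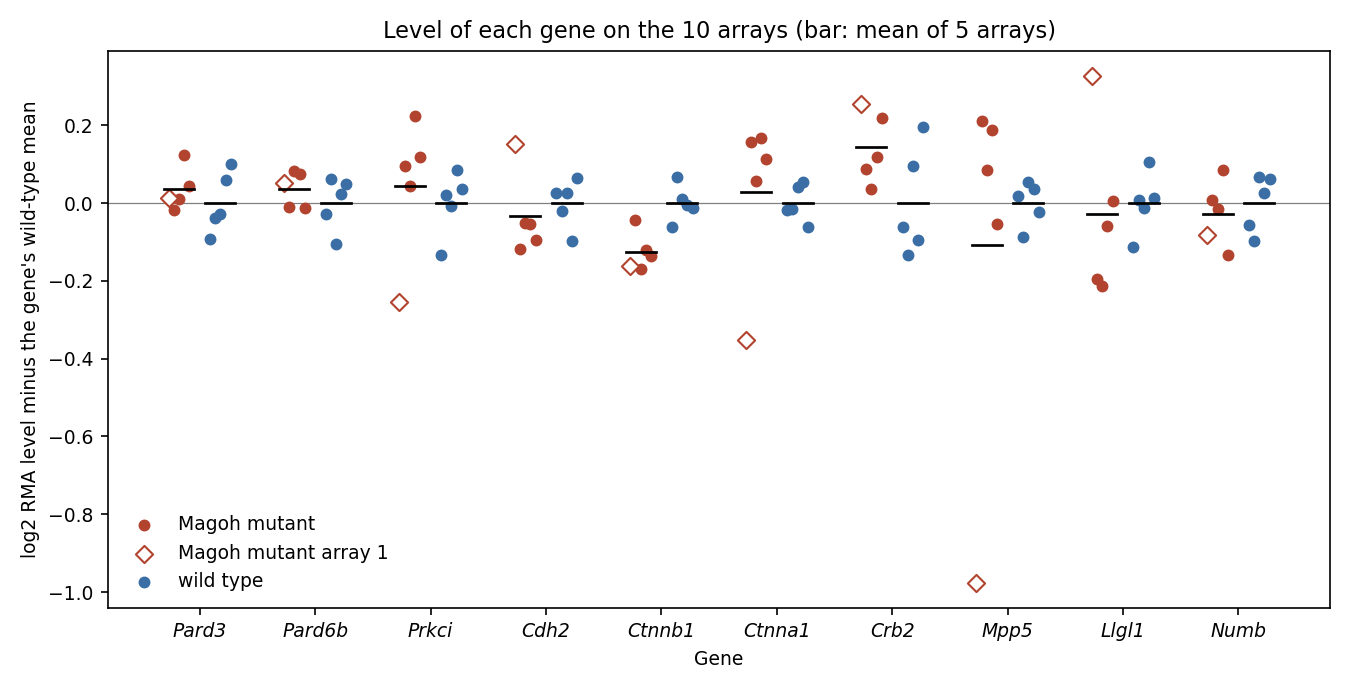
Log2 level of each of the 10 genes on every array, drawn as the distance from that gene's wild-type mean (vertical axis), with Magoh mutant arrays left of wild-type arrays for each gene. Points are arrays, bars are means of 5 arrays, and the open diamond is Magoh mutant array 1, which lies lowest of all 10 arrays for Prkci, Ctnna1 and Mpp5 and highest for Cdh2, Crb2 and Llgl1.

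Of the Par complex, Pard3 (Entrez 93742, chromosome 8) encodes the scaffold that gathers the complex at the junction. Its levels were 8.84, 8.81, 8.83, 8.95 and 8.87 on Magoh mutant arrays 1 to 5, against 8.73, 8.78, 8.79, 8.88 and 8.92 on wild-type arrays 1 to 5. The genotypes overlapped, with 4 of the 5 mutant arrays within the wild-type range, and the difference was 0.03 (SE 0.06, limma adjusted p = 0.921). Pard6b (Entrez 58220, chromosome 2) encodes the adaptor that links the atypical protein kinase C to the small GTPase Cdc42. Its levels were 8.07, 8.01, 8.10, 8.09 and 8.005 in mutants, against 7.99, 8.08, 7.91, 8.04 and 8.07 in wild type. It was the one gene of the 10 below 8.57 in both genotypes, where background can hide a change, and it differed by 0.04 (SE 0.06, limma adjusted p = 0.908).

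Prkci (Entrez 18759, chromosome 3) encodes the atypical kinase itself, whose phosphorylation keeps basolateral proteins away from the apical side. It was at 9.80, 10.15, 10.10, 10.28 and 10.18 on mutant arrays 1 to 5, against 9.92, 10.08, 10.05, 10.14 and 10.09 on wild-type arrays. Mutant array 1 was the lowest of all 10 arrays, while the other 4 mutant arrays lay at or above 10.10. The difference was 0.04 (SE 0.08, limma adjusted p = 0.926) with all arrays and 0.12 (interval -0.02 to 0.26, limma adjusted p = 0.520) without mutant array 1.

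Of the Crumbs complex, Crb2 (Entrez 241324, chromosome 2) encodes the transmembrane Crumbs protein of the embryonic neural epithelium. Its levels were 8.93, 8.77, 8.71, 8.80 and 8.90 in Magoh mutant cortex, against 8.62, 8.54, 8.77, 8.58 and 8.87 in wild-type cortex. All 5 mutant arrays lay above the wild-type mean, but wild-type arrays 3 and 5 lay among them. With all arrays Crb2 thus had the largest difference of the 10, at 0.14 (interval -0.02 to 0.30, limma adjusted p = 0.608). The exact two-sided permutation p of this difference was 0.0952. Mutant array 1 was the highest of all arrays. Without it the difference of Crb2 was 0.115 (interval -0.05 to 0.28, limma adjusted p = 0.640), and that of Ctnna1, at 0.123, was the largest.

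Mpp5 (Entrez 56217, chromosome 12) encodes Pals1, the adaptor that joins Crumbs to the rest of the complex and to Par6. It was at 7.71, 8.90, 8.77, 8.87 and 8.63 on mutant arrays 1 to 5, against 8.70, 8.60, 8.74, 8.72 and 8.66 on wild-type arrays. Mutant array 1 lay 1.08 below the mean of the other 4 mutant arrays, the widest gap of any array for these genes. As a result the SD was 0.496 in mutants and 0.0565 in wild type, and 0.121 over the 4 other mutant arrays. The difference turned its sign on this array, from -0.11 (SE 0.17, limma adjusted p = 0.905) with all arrays to 0.11 (interval -0.04 to 0.25, limma adjusted p = 0.607) without it. The direction of Mpp5 in mutants was therefore not settled.

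In the adherens junction, Ctnnb1 (Entrez 12387, chromosome 9) encodes beta-catenin, which binds the cadherin tail and also carries the Wnt signal to the nucleus. Its levels were 11.89, 12.01, 11.88, 11.93 and 11.92 on Magoh mutant arrays 1 to 5, against 11.99, 12.12, 12.06, 12.05 and 12.04 on wild-type arrays. Mutant arrays 1, 3, 4 and 5 lay below every wild-type array, and mutant array 2 lay just above the lowest of them, wild-type array 1. The difference was -0.13 (interval -0.25 to -0.003), or 0.916 of the wild-type level, with an unadjusted limma p of 0.0452 and an adjusted p of 0.526. As a single value its exact two-sided permutation p was 0.0159, unadjusted, where 0.00794 is the smallest possible. Without any 1 array the difference stayed between -0.15 and -0.11, and the adjusted p in limma between 0.470 and 0.789.

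Cdh2 (Entrez 12558, chromosome 18) encodes N-cadherin. It was at 10.87, 10.60, 10.67, 10.67 and 10.63 in mutants, against 10.75, 10.70, 10.75, 10.63 and 10.79 in wild type. Mutant array 1 was the highest of all arrays, and the other 4 mutant arrays lay within the lower part of the wild-type range or just below it. The difference was -0.03 (SE 0.07, limma adjusted p = 0.931) with all arrays and -0.08 (interval -0.20 to 0.04, limma adjusted p = 0.685) without mutant array 1.

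Ctnna1 (Entrez 12385, chromosome 18) encodes alpha-E-catenin, the link to actin. It was at 10.45, 10.96, 10.86, 10.97 and 10.92 in mutants, against 10.79, 10.79, 10.85, 10.86 and 10.74 in wild type. Mutant array 1 was far below all others, and each of the other 4 mutant arrays lay above the highest wild-type array, mutant array 3 by less than the SD in wild type. The difference was 0.03 (SE 0.09, limma adjusted p = 0.961) with all arrays. Without mutant array 1 it was 0.12 (interval -0.0004 to 0.25), with an unadjusted limma p of 0.0507 and an adjusted p of 0.435. Without mutant array 2 or 4 it lay just below 0, at -0.004 and -0.0070, so the direction of Ctnna1 was not settled.

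Llgl1 (Entrez 16897, chromosome 11) encodes a Lethal giant larvae protein, the basolateral counterpart of the Par complex. Its levels were 10.18, 9.66, 9.64, 9.79 and 9.86 in Magoh mutant cortex, against 9.74, 9.86, 9.84, 9.96 and 9.87 in wild-type cortex. Mutant array 1 was the highest of all arrays, and mutant arrays 2 and 3 were the lowest. The difference was -0.03 (SE 0.09, limma adjusted p = 0.961) with all arrays and -0.12 (interval -0.26 to 0.03, limma adjusted p = 0.568) without mutant array 1. Without mutant array 2 or 3 it lay just above 0, at 0.014 and 0.019, so its direction was not settled either.

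Numb (Entrez 18222, chromosome 12) encodes an endocytic adaptor that restrains Notch and helps keep cadherin at the junction. It was at 8.57, 8.67, 8.64, 8.74 and 8.53 in mutants, against 8.60, 8.56, 8.72, 8.68 and 8.72 in wild type. The genotypes overlapped over most of their range, with a difference of -0.03 (SE 0.06, limma adjusted p = 0.944).

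**Figure D2:**
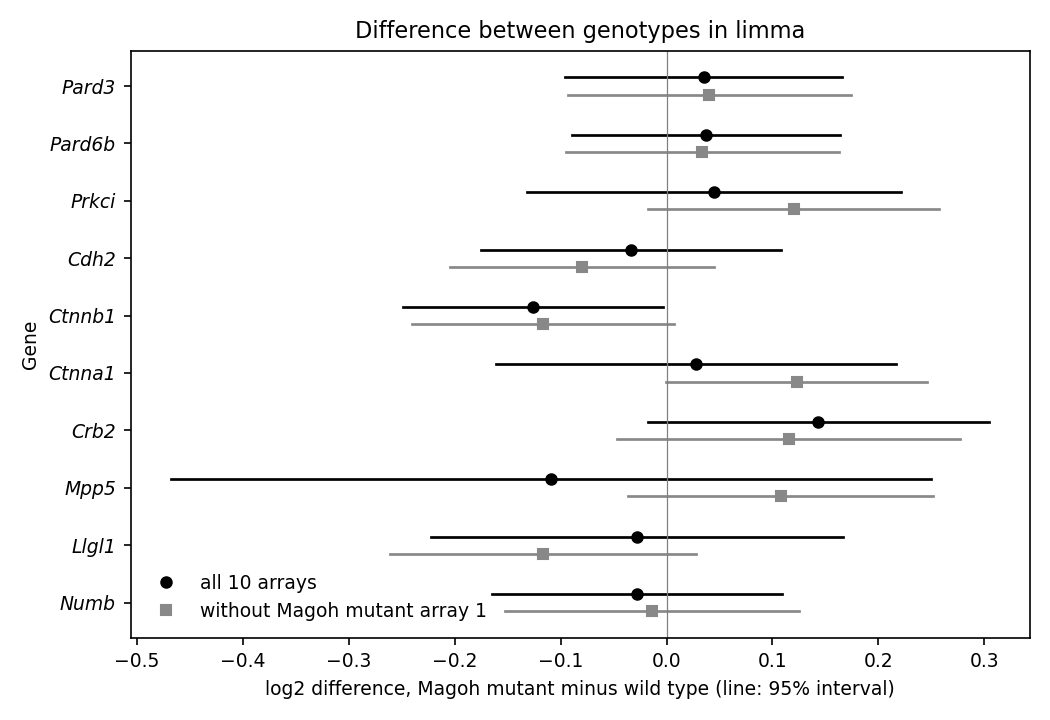
Log2 difference of each gene, Magoh mutant minus wild type, from limma (horizontal axis; lines are 95% intervals), with all 10 arrays (black circles) and without Magoh mutant array 1 (grey squares). All intervals but that of Ctnnb1 with all 10 arrays include 0, and Mpp5 is the gene whose value changes side, from -0.11 to 0.11.

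By the median SD, the 10 genes did not spread more between arrays of a genotype than all genes did. Their median SD was 0.0993 in mutants and 0.0708 in wild type, against medians over all genes of 0.135 in mutants and 0.0919 in wild type. These medians compare unlike levels, since 14840 of the 20405 genes lay below 8.57 in both genotypes, and 1 of the 10 did. Single genes spread far more in mutants. The SD of Ctnna1 was 0.217 in mutants and 0.0477 in wild type, and that of Mpp5 was 0.496 in mutants and 0.0565 in wild type. The SD was larger in mutants for 7 of the 10, and for 73.3% of all genes. Over the 4 mutant arrays other than array 1 it exceeded that in wild type for 5 of the 10, and for 65.0% of all genes. Mutant array 1 was the lowest or highest of the 10 arrays for 6 of the 10 genes, and for 37.6% of all genes, more than any other array. On that array the mean level of the red cell markers was 9.33, below the 9.56 to 9.82 of the other mutant arrays, that of the apical progenitor markers was 9.47, above their 9.35 to 9.39, and that of the junction actomyosin genes was 10.20, below their 10.31 to 10.45. The mean of the other adherens junction genes was 8.55 there, above 8.32 to 8.49 on the other mutant arrays, and that of the tight junction and apical membrane genes 8.21, below 8.24 to 8.37. The part of these differences in the values of the 10 genes was not tested.

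The genes whose levels ran most like those of Ctnnb1 and Crb2, which had the smallest p of the 10, were sought among 10103 genes at or above the median level. Over the 10 arrays, Ctnnb1 was followed most closely by Zcchc18 (Pearson r = 0.94), Fh1 (0.93) and Dbi (0.93), and Crb2 by Nkx6-2 (0.97), Adar (0.94) and Lama1 (0.92). These are the highest of many correlations over few arrays that include the difference between genotypes, and are given as a description.

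The wider pathway was covered by 7 lists with 106 measured genes, of which 1 rose and 1 fell in mutant cortex and 104 did not pass. Over all genes, 0.26% rose and 0.314% fell. Without adjustment, at p under 0.05, 11 of the 106 were higher and 12 lower, where 4.57% of all genes were higher and 4.68% lower. The genotypes did not overlap in 11 of the 106, where they did not in 2.82% of all genes. The median difference of the 106 was 0.03, beside 0.00 over all genes. In 51 of them both genotypes lay below 8.57, so these values can include background. Among the brighter genes of the table, those averaging at least 8.57, 12.8% passed an unadjusted p of 0.05.

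Jam2, which encodes a junctional adhesion molecule whose tail binds the Par3 scaffold, was the gene that fell. It was at 8.19, 8.19, 7.91, 8.03 and 8.14 on Magoh mutant arrays 1 to 5, against 8.65, 8.70, 8.77, 8.48 and 8.60 on wild-type arrays. Every mutant array lay below every wild-type array. The difference was -0.55 (SE 0.07, limma adjusted p = 0.0018), or 0.683 of the wild-type level, a ratio that can include background since the mutant level was below 8.57. Its call was kept with any 1 array left out, the highest adjusted p being 0.0107. Jam2 is also a gene of blood vessels, and the 12 endothelial markers were all above 0 in difference, with a median of 0.12 and 0 called in limma. Their mean level ran from 7.77 to 7.94 on mutant arrays and from 7.62 to 7.84 on wild-type arrays, and the lowest of them, Sox17, was at 6.07 in mutants and 6.02 in wild type. The part of vessel cells in the value of Jam2 was not tested.

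Nectin2, which encodes an immunoglobulin-type adhesion protein of adherens junctions, was the gene that rose. It was at 8.23, 8.04, 8.07, 8.18 and 8.09 in mutants, against 7.86, 7.75, 7.78, 7.73 and 7.94 in wild type. All mutant arrays lay above the wild-type arrays, and all levels were below 8.57. The difference was 0.31 (SE 0.07, limma adjusted p = 0.0448), and leaving out any 1 array other than wild-type array 5 ended the call, the highest adjusted p being 0.164. Surface ectoderm markers, from an epithelium that has its own junctions, had a positive difference in 11 of 12 genes with 0 called and a median of 0.14. Their mean level ran from 7.62 to 7.86 on mutant arrays and from 7.53 to 7.85 on wild-type arrays, with Krt5 at 5.87 in mutants and 5.82 in wild type. The part of these cells in the value of Nectin2 was not tested.

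The lists of other Par and Crumbs complex genes, which also hold genes acting with these complexes, showed no call. Of 8 other Par complex genes 0 were called and 0 passed an unadjusted p of 0.05 in limma, with a median of -0.002. In 4 of these 8 both genotypes lay below 8.57, where background can hide a change. Pard6a, a paralog of Pard6b, differed by -0.10 (limma adjusted p = 0.736) at levels below 8.57, and the Rac activator gene Tiam1 by 0.11 (limma adjusted p = 0.775). Of 10 other Crumbs complex genes 0 were called and 0 passed an unadjusted p of 0.05 in limma, with a median of -0.01. Both genotypes lay below 8.57 in 8 of these 10, so a change could have been hidden. Crb1, the Crumbs paralog known from the retina, differed by -0.16 (limma adjusted p = 0.552) and Lin7b, which encodes a partner of Pals1, by -0.10 (limma adjusted p = 0.648), both at levels below 8.57. With its 2 probe sets averaged, Lin7b differed by -0.16 (limma unadjusted p = 0.0195, adjusted p = 0.389).

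Of 14 other basolateral polarity genes 0 were called in limma, with a median of 0.06. Without adjustment, 1 was higher and 1 lower at p under 0.05. The first was Llgl2, the paralog of Llgl1, at 6.77, 6.81, 6.75, 6.88 and 6.97 on mutant arrays, against 6.50, 6.49, 6.66, 6.60 and 6.44 on wild-type arrays. Its genotypes did not overlap, at levels well below 8.57. The difference was 0.29 (SE 0.07, limma adjusted p = 0.065). Of the 10 fits that left out 1 array, it passed the threshold in 1, without mutant array 1 (limma adjusted p = 0.0465). The highest adjusted p of these limma fits was 0.201, without wild-type array 2. Erbin, which encodes a basolateral scaffold protein, differed by -0.20 (limma adjusted p = 0.359).

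Of 26 other adherens junction genes, Nectin2 rose, 0 fell and 25 did not pass, with a median of 0.04. Without adjustment, 7 were higher and 4 lower at p under 0.05, beside 4.57% higher and 4.68% lower over all genes. In 5 of the 26 the genotypes did not overlap, which was so for 2.82% of all genes. The smallest p among those not called belonged to Cdh8, a type II cadherin gene, at -0.24 (limma adjusted p = 0.173) with levels below 8.57, and to Fat4, a giant atypical cadherin gene of the apical surface of cortical progenitors, at -0.30 (limma adjusted p = 0.186). Fat4 was at 9.47, 9.12, 9.05, 9.26 and 9.41 on mutant arrays, against 9.51, 9.50, 9.47, 9.55 and 9.77 on wild-type arrays. Mutant array 1 lay just below the lowest wild-type array, so the genotypes met without overlap.

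Of 21 tight junction and apical membrane genes, Jam2 fell, 0 rose and 20 did not pass, with a median of 0.05. Without adjustment, 2 were higher and 4 lower at p under 0.05, where 4.57% of all genes were higher and 4.68% lower. The genotypes were without overlap in 4 of the 21, and in 2.82% of all genes. Prom1, which encodes the membrane protein CD133 of apical progenitors, was at 7.98, 8.34, 8.28, 8.34 and 8.17 in mutants, against 8.51, 8.44, 8.42, 8.40 and 8.47 in wild type. The genotypes did not overlap, and the difference of -0.23 did not pass (limma adjusted p = 0.251). Without mutant array 1, the lowest of all arrays for Prom1, the difference was -0.17 (limma adjusted p = 0.262). Prom1 is also among the apical progenitor markers used here, of which 1 of 12 fell (Fabp7) and 9 of 12 were below 0 in difference, with a median of -0.17. The mean level of these markers ran from 9.35 to 9.47 on mutant arrays and from 9.53 to 9.67 on wild-type arrays, without overlap. Cldn12, a claudin gene, differed by 0.17 (limma adjusted p = 0.340).

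Among 12 genes of Numb partners and 15 measured genes of junctional actomyosin, 0 were called in limma, with medians of 0.04 and 0.01. At an unadjusted p under 0.05, 1 Numb partner was higher (Lnx2, a ubiquitin ligase gene, 0.19, limma adjusted p = 0.345), at levels below 8.57. At that threshold 1 was lower (Ap2m1, a subunit gene of the endocytic AP2 adaptor, -0.16, limma adjusted p = 0.533). Without mutant array 1, Ap2m1 was at -0.11 and no longer passed (limma unadjusted p = 0.126). It was also lost without some other single arrays. Of the actomyosin genes 0 were higher and 2 lower. The lower ones were Marcks, which encodes an actin-binding protein of the membrane (-0.22, limma adjusted p = 0.291), and Myl9 (-0.21, limma adjusted p = 0.501). Myl9, a myosin light chain gene, lay below 8.57 in both genotypes, at 8.30 in mutants and 8.52 in wild type. It no longer passed without some single arrays, such as wild-type array 4 (limma unadjusted p = 0.116). Marcks was at 11.42, 11.60, 11.51, 11.64 and 11.28 in mutants, against 11.80, 11.68, 11.71, 11.69 and 11.66 in wild type, without overlap.

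**Figure D3:**
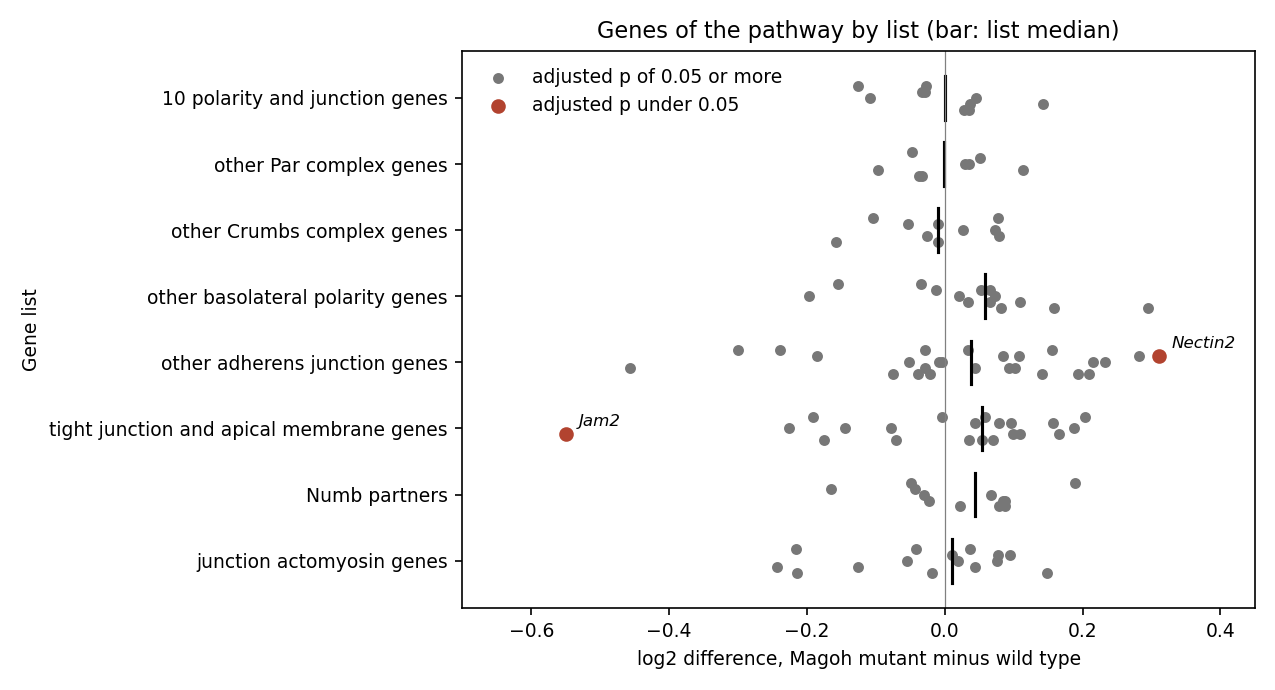
Log2 difference, Magoh mutant minus wild type, of every measured gene of the 10 polarity and junction genes and of 7 further lists of the pathway (horizontal axis). Each point is a gene, black bars are list medians, which lie between -0.01 and 0.06, and red points are the genes with an adjusted p under 0.05, Jam2 at -0.55 and Nectin2 at 0.31.

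The same arrays held large differences in genes of neurons. Of 12 neuron markers 7 fell and 0 rose, with a median of -0.49, where 0.314% of all genes fell and 0.26% rose. In 7 of the 12 both genotypes lay below 8.57, among them the called genes Dcx, Elavl4, Slc17a6 and Tbr1. The called genes Tubb3 and Map2 lay above it in both genotypes, and Elavl3 only in wild type. Their mean level ran from 7.09 to 7.56 on mutant arrays and from 7.66 to 7.96 on wild-type arrays, and Neurod6, at 3.99 in mutants and 3.74 in wild type, lay below the medians of the negative controls in both genotypes. Of the other cell types, 0 of 12 mesenchyme markers were called (median -0.10), 0 of 12 red cell markers (median 0.26) and 0 of 12 macrophage markers (median -0.10), in limma. At an unadjusted p under 0.05, 6 of 12 apical progenitor markers were lower and 0 higher, where 4.68% of all genes were lower and 4.57% higher. At the same threshold, 3 mesenchyme and 4 macrophage markers were lower, 9 red cell and 3 endothelial markers higher, and 1 surface ectoderm marker higher. Both genotypes lay below 8.57 in all 12 macrophage, 10 endothelial and 8 surface ectoderm markers. The same held for 6 red cell, 5 mesenchyme and 1 apical progenitor marker. The 10 polarity and junction genes, expressed by progenitors and in part by these other cells, had a mean level of 9.53 to 9.71 on mutant arrays and of 9.58 to 9.68 on wild-type arrays.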

How the data were processed

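The authors deposited log2 RMA values of 10 arrays. Per the submitters' processing notes, these came from Affymetrix Expression Console, whose version is not given in the sources used here. Other annotation text that was deposited (accession, Entrez number, title) named the probe sets through a gene table of assembly GRCm38.p6, 23322 by Entrez number and 465 by accession, which gave 20405 genes. The brightest probe set was kept where a gene had several. A further 10 columns of per-sample values with names that match no label were not used. Labels were 5 biological replicates per genotype, and litters were not given.

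Limma 3.58.1 (lmFit, eBayes) in R 4.3.3 was fitted to all genes without covariates or a filter and tested on simulated data. Adjusted p under 0.05 was called. Named were the 10 genes, Magoh, every called gene of each list with the 2 next smallest p, and 3 genes most correlated with each of the 2 genes of smallest p. The members, lists and rule were chosen with earlier results of these data known. Alternatives were quantile normalization, median centring, 2 filters on dim genes, other uses of probe sets, a variance trend, array weights, a block for replicate number, a covariate for sex, a threshold of 0.1, the exact permutation test and leaving out each array. Sex was not in the labels and was read from the levels of Y-linked genes on the same arrays. The number of arrays limits the precision. Myl12a had no probe set here. No sequences are shown, since the measurements bear on none.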

Additional observations from a re-analysis of the deposited data

Results flagged for a closer look

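On 3 of the 10 genes, Magoh mutant array 1 stood apart from the other 4 mutant arrays by Dixon's test at its 95% limit. Cdh2 was at 10.87 there, above 10.60 to 10.67 on the others. Ctnna1 was at 10.45, below 10.86 to 10.97. Mpp5 was at 7.71, below 8.63 to 8.90. Chance flags about 5% of groups, and 22 groups were looked at, of which no wild-type group was flagged. Over all genes the test flagged an array for 7.83% in mutants and for 5.81% in wild type, and mutant array 1 for 4.04%, the highest share of any array.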

How the results depend on the processing

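None of the 10 genes was called under any of the 21 alternatives that give a count, and the differences kept their direction and their side of the threshold in 212 of 219 values. The exceptions were Ctnnb1, at -0.13 with an exact two-sided permutation p of 0.0159, which is unadjusted, Mpp5, at 0.084 with array weights, and values that left out 1 array. Those ran for Mpp5 from -0.19 to 0.11 (above 0 without mutant array 1), for Ctnna1 from -0.01 to 0.12 (-0.004 without mutant array 2, -0.0070 without mutant array 4) and for Llgl1 from -0.12 to 0.02 (0.014 without mutant array 2, 0.019 without mutant array 3). Leaving out 1 array moved the differences of these 3 and of Prkci (0.00 to 0.12), Cdh2 (-0.08 to -0.01), Pard3 (0.01 to 0.06), Pard6b (0.01 to 0.05) and Numb (-0.06 to -0.002) by over 1.5 times, all within their intervals. Magoh was called in each.

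Of the 106 other genes, 2 were called. The count was 5 with array weights (Arvcf, Fat4, Jam2, Llgl2 and Nectin2). It was 3 with quantile normalization, median centring or a threshold of 0.1. It was 1 (Jam2) with a sex covariate, with the replicate block or with every named probe set in the fit. In that last fit only the brightest probe set of each gene was counted. Without 1 array the count was 1 to 2. It was 0 among genes averaging at least 8.57, where Jam2 and Nectin2 were left out by construction. The count over all genes was 117, with 72 and 59.7% higher in place of 45.3% under that filter, 408 with array weights, 224 at a threshold of 0.1, 185 without mutant array 1 and 66, 64 and 71 without wild-type arrays 1, 2 and 3.

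The replicate numbers did not pair the samples. Deviations of arrays with the same number correlated between -0.07 and 0.36, and 3 of 10 arrays correlated best with their own number. With the replicate block, Ctnnb1 was at -0.13 (limma adjusted p = 0.502), Crb2 at 0.14 (0.540) and Nectin2 at 0.31 (0.0822), and 83 genes in all were called. Levels below 8.57 limit what Pard6b, Nectin2 and Llgl2 can show.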

Other observations

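Some junction genes outside the named ones stood apart from a paralog. They were chosen after their values were seen, none was called, and the differences between paralogs were not tested. Fat1 and Fat4 encode giant atypical cadherins. Fat1 averaged 9.91 in Magoh mutant cortex and 9.63 in wild-type cortex, a difference of 0.28 (limma adjusted p = 0.278), where Fat4 differed by -0.30. Ctnna1 was at 0.03 (-0.004 without mutant array 2 and -0.0070 without mutant array 4). Its neuronal paralog Ctnna2, which encodes alpha-N-catenin, averaged 6.83 in mutants and 7.29 in wild type, a difference of -0.46 (limma adjusted p = 0.291) at levels below 8.57. The neuron markers had a median of -0.49, and their part in the value of Ctnna2 was not tested. Cdh11, a type II cadherin gene of mesenchyme and early brain, averaged 11.08 in mutants and 10.89 in wild type without overlap (0.19, limma adjusted p = 0.274), where Cdh8 differed by -0.24.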
